A study of Mus musculus with 16 samples.

Results

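The 9 genes Cd74, H2-Aa, H2-Ab1, H2-Eb1, H2-DMa, H2-DMb1, H2-DMb2, H2-Oa and Ciita, which serve antigen presentation on MHC class II, were followed through RNA-seq of mouse DN3 thymocytes. They were taken by gene symbol, 9 of the 22114 protein-coding genes that both deposited count tables list, and all 9 had reads in every library. DN3 thymocytes are CD4- CD8- T-cell progenitors at the stage where the pre-T-cell receptor is first expressed. The study asked how a restricted cell cycle and the cell-cycle inhibitor p21 act on DN3 cells that carry an Lmo2 transgene and can initiate T-cell leukaemia.

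MHC class II is a pair of membrane chains, alpha and beta, that shows peptides to CD4+ T cells. The chains assemble on the invariant chain, and the exchange factor DM loads peptide while DO restrains DM. The transactivator CIITA switches class II genes on together with RFX, CREB and NF-Y, which bind a shared X and Y box upstream of such genes. B cells, dendritic cells, macrophages and thymic epithelium can express class II, whereas mouse T cells do not normally do so.

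Libraries of 1 experiment came from 2-month-old H2B-GFP;Lmo2Tg mice, which had received doxycycline for 6 weeks to load a GFP-tagged histone and were then chased for 2 weeks without it. Cells that kept the label (GFP-hi, n = 3) had divided little, and cells that had diluted it (GFP-lo, n = 3) had cycled, so both groups carry the Lmo2 and the H2B-GFP transgenes and saw the drug. The other experiment profiled total DN3 cells of 6-week-old wild-type (n = 3), p21-/- (n = 2, with 1 further labelled sample not analysed here), Lmo2Tg (n = 2) and Lmo2Tg;p21-/- (n = 2) mice. The labels give the strain as C57BL/6 and the methods as a C57BL/6J background, the Lmo2 transgene is driven by the CD2 promoter and so is on in T cells generally, and each library pooled 3 to 5 mice. The p-values therefore measure the spread between pools.

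Total counts ranged from 26861394 to 31106213 in GFP libraries and from 13864936 to 16837667 in genotype libraries. CPM are counts scaled to the totals of the tested genes with TMM factors. On the plain totals, 3 counts correspond to 0.0964 to 0.112 CPM in GFP and 0.178 to 0.216 CPM in genotype libraries. These floors cover counting error only. The 12 DN3 marker genes examined summed to between 9577 and 13350 CPM in every library. Lmo2 had at most 5 counts in libraries without the transgene and at least 560 with it. Cdkn1a, which encodes p21, had 14.3 to 17.7 CPM in the libraries labelled p21-/- against 36.5 to 49.0 CPM in wild-type, and 3.50 to 4.35 CPM in Lmo2Tg;p21-/- against 26.3 to 32.8 CPM in Lmo2Tg. GFP-hi replicate 3 stood apart: its log2 CPM correlated with those of the other GFP-hi libraries at r = 0.952 and 0.954, while these correlated with each other at 0.989, and it had 285 CPM of Lmo2 where the other GFP libraries had 29.5 to 53.8 CPM. GFP-lo libraries had 8.08 to 12.02 CPM of Cdkn1a, which GFP-hi replicate 1 exceeded with 35.8 CPM and replicate 2 with 29.9 CPM, but replicate 3 was below all of them with 6.56 CPM. The members' differences between GFP-hi and GFP-lo are therefore given with and without it, while the values of other gene lists include it.

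Of the 9 genes, 7 lie in the MHC on chromosome 17. RefSeq promoters of build GRCm38.p6, reaching from 250 bases before to 50 bases after the start of a gene, were used for 6 of the 9 genes, all but the invariant chain gene, H2-Ab1 and Ciita, in 7 windows. The letters TGATTGG (the Y box, either strand) occurred in 5 of the 7 windows and in 7.82% of all 32851 promoters of that length. AAC, letters of the X box, followed after a spacer of 25 or 26 bases by TGATTGG, either strand, occurred in the same 5 windows (H2-Aa, H2-DMb1, H2-DMb2, H2-Eb1 and H2-Oa) and in 0.253% of all promoters. Neither was found in the 2 windows of H2-DMa. The longer search contains the shorter, and its letters and its spacer of 25 or 26 bases were chosen after the members' sequences had been read. The matches in these 5 windows were thus set by that choice and are a description. The X2 box letters TGACGTCA (either strand) were found only in the H2-Aa window, and in 1.79% of all promoters. Below are 4 of these stretches, shown because their genes share the boxes and yet differed in the comparisons that follow. AAC and TGATTGG are in capitals.
H2-Aa: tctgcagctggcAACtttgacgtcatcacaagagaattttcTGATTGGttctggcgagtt
H2-Eb1: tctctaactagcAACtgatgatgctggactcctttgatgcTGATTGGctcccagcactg
H2-DMb2: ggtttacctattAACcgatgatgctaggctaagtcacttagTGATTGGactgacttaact
H2-Oa: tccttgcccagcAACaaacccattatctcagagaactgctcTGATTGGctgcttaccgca
The H2-Aa stretch is chr17:34287855-34287914 on the minus strand. The H2-Eb1 stretch is chr17:34305766-34305824, that of H2-DMb2 is chr17:34145116-34145175 and that of H2-Oa is chr17:34092293-34092352, all on the plus strand. They end between 27 and 74 bases before the RefSeq start of their gene. The H2-DMb2 stretch lies in an intron of a longer GENCODE transcript, and the last bases of the H2-Oa stretch lie in the first exon of the GENCODE model. A match describes letters, not a bound site.

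GFP-hi and GFP-lo cells differed in part of the class II set. Cd74 and H2-Eb1 rose in GFP-hi, H2-Aa, Ciita and H2-DMb2 were also higher in every GFP-hi library without passing the threshold, and H2-Ab1, H2-DMa, H2-DMb1 and H2-Oa overlapped between the groups. The threshold was a fold above 2 and an adjusted p under 0.01 (quasi-likelihood test of edgeR, Benjamini-Hochberg adjusted over all 11581 genes tested). By it, 2 of 9 members were called, both higher, while 0.302% of all genes were called higher, 1.95% lower and 2.25% in either direction. The libraries did not overlap in 5 of 9 members, all higher in GFP-hi, against 19.6% of all genes higher and 21.7% lower. The members were chosen with results of these libraries known, so neither count is independent evidence of its direction. H2-Eb1 and Ciita passed the filter on low counts only through the GFP-hi libraries and had to differ to be tested. Cd74 was over its minimum in 5 of 6 libraries and H2-Aa in 4 of 6, so both also relied on GFP-hi reads.

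Among the chains, H2-Aa (chr17:34282744-34287823, minus strand), the I-A alpha chain, had 4.52, 19.4 and 6.00 CPM in replicates 1 to 3 of GFP-hi and 0.518, 0.245 and 0.0966 CPM in those of GFP-lo. The last of these is 3 counts, at the floor. The groups did not overlap, and the log2 fold change was 5.12 (SE 0.84, adjusted p = 0.0155, edgeR).

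H2-Eb1 (chr17:34305867-34316674, plus strand), the I-E beta chain, had 3.79, 15.4 and 4.84 CPM in GFP-hi and 0.222, 0.314 and 0.193 CPM in GFP-lo. All GFP-lo libraries held 6 to 9 reads, and the lowest GFP-hi library held 103. The log2 fold change was 5.02 (SE 0.70, adjusted p = 0.00989, edgeR), just inside the threshold.

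H2-Ab1 (chr17:34257689-34269419, plus strand), the I-A beta chain that pairs with H2-Aa, did not follow its partner. It had 5.48, 18.2 and 4.36 CPM in GFP-hi and 6.40, 7.86 and 9.69 CPM in GFP-lo. Only GFP-hi replicate 2 lay above the GFP-lo range, and the other GFP-hi replicates lay below it. The log2 fold change was 0.23 (SE 0.56, adjusted p = 0.80, edgeR) and changed sign, to -0.70, without GFP-hi replicate 2 (adjusted p = 0.142).

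Cd74 (chr18:60803848-60812652, plus strand), the invariant chain, was the member with the largest difference. It had 372, 1682 and 439 reads in GFP-hi, or 13.7, 57.4 and 16.4 CPM. In GFP-lo it had 8, 12 and 13 reads, or 0.296, 0.419 and 0.419 CPM. The lowest GFP-hi library was thus far above the highest GFP-lo library, and the log2 fold change of 6.25 (SE 0.75, adjusted p = 0.00645, edgeR) is a 76-fold difference.

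The DM genes split. H2-DMb2 (chr17:34143307-34151555, plus strand), a DM beta chain, had 1.40, 4.27 and 1.75 CPM in GFP-hi and 0.592, 0.524 and 0.483 CPM in GFP-lo, without overlap (log2 fold change 2.21, SE 0.49, adjusted p = 0.0352, edgeR). H2-DMb1 (chr17:34153072-34160230, plus strand), the other DM beta chain, had 1.07, 1.604 and 1.53 CPM against 0.925, 1.36 and 1.29 CPM, which overlap (log2 fold change 0.23, SE 0.28, adjusted p = 0.60, edgeR). The pair share 369 stretches of 50 bases, 22.7% of those of H2-DMb1, so reads could be divided between them uncertainly. H2-DMa (chr17:34119541-34139101, plus strand), the DM alpha chain, had 5.48, 6.996 and 8.31 CPM against 5.92, 6.57 and 6.70 CPM (log2 fold change 0.11, SE 0.19, adjusted p = 0.70, edgeR). H2-DMa shares 360 of its 3448 exonic bases with Brd2 on the opposite strand. The names of the count tables give a reverse-strand setting for the GFP libraries and none for the genotype libraries, where reads of such overlaps cannot be told apart.

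H2-Oa (chr17:34092340-34095234, plus strand), the DO alpha chain, was abundant and flat, with 26.8, 25.9 and 20.7 CPM in GFP-hi and 25.9, 24.0 and 21.03 CPM in GFP-lo. The ranges overlapped almost wholly (log2 fold change 0.05, SE 0.14, adjusted p = 0.84, edgeR). H2-Oa shares 321 of its 1407 exonic bases with an antisense gene, BC051537.

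Ciita (chr16:10480059-10528418, plus strand), the transactivator, had 1.14, 5.22 and 1.71 CPM in GFP-hi and 0.259, 0.140 and 0.129 CPM in GFP-lo. In reads this was 31, 153 and 46 against 7, 4 and 4, without overlap. Its log2 fold change was 3.92 (SE 0.74, adjusted p = 0.0231, edgeR).

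**Figure D1:**
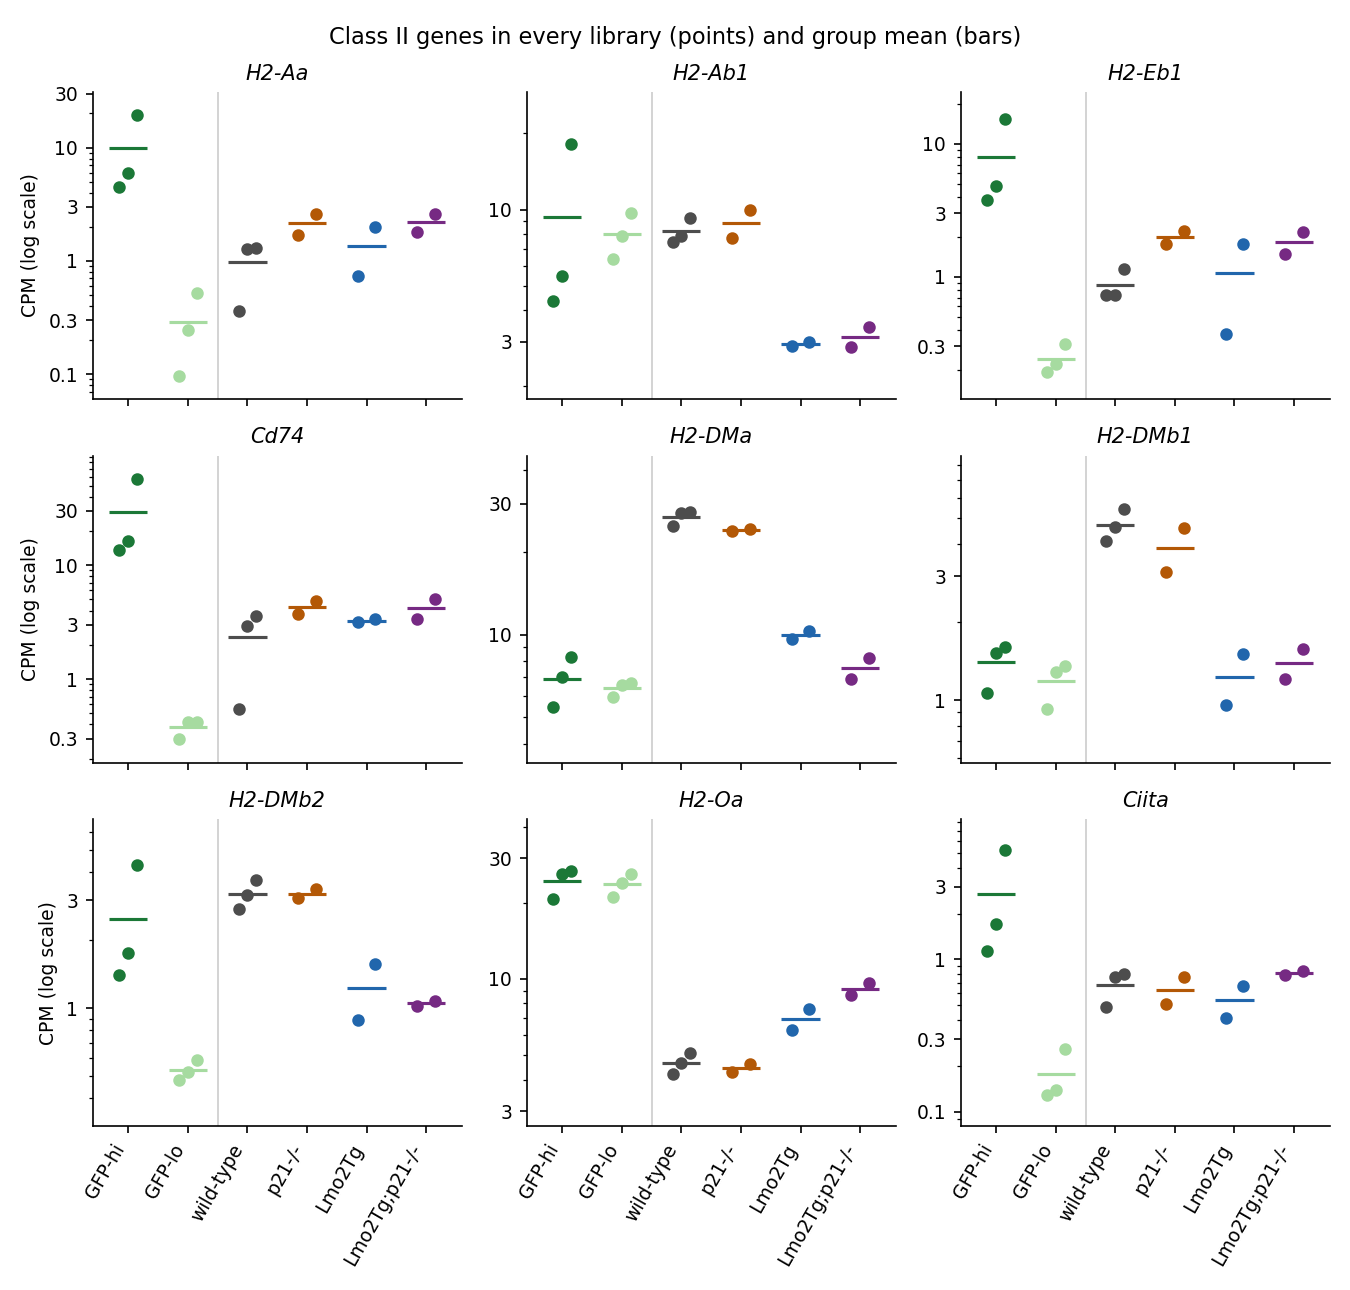
CPM of each gene on a log scale in every library (points), with the mean of each group (bars), for GFP-sorted DN3 cells left of the grey line and total DN3 cells right of it. Cd74, H2-Aa, H2-Eb1, H2-DMb2 and Ciita lie higher in all 3 GFP-hi than in all 3 GFP-lo libraries, while H2-Ab1, H2-DMa, H2-DMb1 and H2-DMb2 lie lower in all Lmo2Tg than in all wild-type libraries.

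The 5 members that did not overlap also varied together within GFP-hi. Replicate 2 was highest in each, from 3.06 times the CPM of replicate 1 for H2-DMb2 to 4.58 times for Ciita. Replicate 3 was 1.196 to 1.504 times replicate 1. Of the members that overlapped, H2-Ab1 (3.33 times) and H2-DMb1 (1.505 times) were also highest in replicate 2, and H2-DMa and H2-Oa were not. Of 17 B cell genes in the table, 10 were picked for having at least 10 reads in GFP-hi replicate 1 and lying higher in every GFP-hi than in every GFP-lo library, where 19.6% of all genes tested lay. The choice sets their direction, and as a description replicate 2 was at a median of 4.13 times replicate 1 and a range of 1.28 to 5.36 times. Ms4a1, which encodes CD20, had 1.87, 7.58 and 2.24 CPM in GFP-hi and at most 1 read in a GFP-lo library. Pax5, the B-lineage regulator and named after its values were seen, had 1.25, 5.94 and 1.53 CPM against 0 to 0.0966 CPM.

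The whole B cell list summed to 198 to 303 CPM in GFP-hi and 181 to 204 CPM in GFP-lo. Without the 5 genes that average at least 10 CPM in either table, the other 12 genes summed to 11.98, 46.9 and 14.1 CPM in GFP-hi and to 3.35 to 4.65 CPM in GFP-lo, where 3 or 4 genes were at 0. By the test, 1 of the 14 B cell genes tested rose (Ms4a1, log2 fold change 7.94, adjusted p = 0.0092, edgeR). Cr2 and Fcer2a had the next largest values, 6.63 (adjusted p = 0.0239) and 6.30 (adjusted p = 0.0186, edgeR). Ms4a1, Cr2, Fcer2a, Pax5 and Cd22 were under the minimum of the low-count filter in every GFP-lo library and were tested only because of their GFP-hi reads. The part of B cell RNA in the class II difference was not tested. In bulk libraries, fewer cells of a type and less RNA per cell cannot be told apart.

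Other presenting cells were examined through their own lists. Of 12 macrophage and monocyte genes, 0 of 8 tested were called. The complement genes C1qa, C1qc and C1qb had the largest values, 3.54, 3.39 and 2.34 (adjusted p = 0.043, 0.0346 and 0.0896, edgeR). C1qa was at 0.514, 1.64 and 0.373 CPM in GFP-hi against 0.0349 to 0.129 CPM in GFP-lo. All of these complement genes were under the minimum of the low-count filter in every GFP-lo library. They were tested only because of their GFP-hi reads. By the choice used for the B cell genes, 4 of the 12 were picked (Csf1r, C1qa, C1qb and C1qc), where 19.6% of all genes tested lay higher throughout. In these, GFP-hi replicate 2 was at a median of 2.88 times replicate 1 and a range of 2.32 to 4.48 times. The 5 other genes with at least 10 reads in replicate 1 were at 0.767 to 3.45 times. The list summed to 13.3 to 20.5 CPM in GFP-hi and 17.7 to 19.6 CPM in GFP-lo, and its 11 genes under 10 CPM to 7.002 to 17.2 CPM and 11.8 to 13.3 CPM. The 11 dendritic cell genes summed to 44.1 to 45.7 CPM in GFP-hi and 57.3 to 61.7 CPM in GFP-lo, and 0 of 2 tested were called (Ccr7 at -0.56 and Cst3 at -0.40, adjusted p = 0.0968 and 0.0183, edgeR). Cst3 made up most of these sums, at 37.7 to 40.8 CPM in GFP-hi and 49.4 to 54.3 CPM in GFP-lo. The 10 dendritic cell genes under 10 CPM summed to 4.25 to 8.02 CPM in GFP-hi and 7.02 to 7.89 CPM in GFP-lo, which overlap. The defining dendritic genes Xcr1, Cd209a and Siglech had 0 to 2 reads in any GFP library. Sirpa, which macrophages also express, had 0.0367, 1.84 and 0.186 CPM in GFP-hi, Itgax had 0.11, 0.512 and 0.224 CPM and Flt3 had 0.0735, 0.273 and 0.0745 CPM, each highest in replicate 2 (3 genes named after their values were seen). They had 1 to 3 reads in GFP-hi replicate 1. All overlapped with GFP-lo, at 0.0349 to 0.296 CPM for Sirpa, 0.0699 to 0.481 CPM for Itgax and 0.105 to 0.129 CPM for Flt3. Ccr7, Cst3, Clec9a, Batf3, Xcr1 and Cd209a of the same list were not highest in GFP-hi replicate 2. The 10 genes of thymic epithelium summed to 129 to 145 CPM against 91.5 to 103 CPM, but its 8 genes under 10 CPM summed to 4.99 to 7.78 CPM against 14.5 to 16.4 CPM, with Krt14 at 0 in every GFP library. In that list Aire, which drives self-antigen expression in medullary epithelium, fell by 3.26 on the log2 scale (adjusted p = 0.00685, edgeR), and Cldn4 and Epcam had -2.08 and 1.59 (adjusted p = 0.038 and 0.0227, edgeR).

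**Figure D2:**
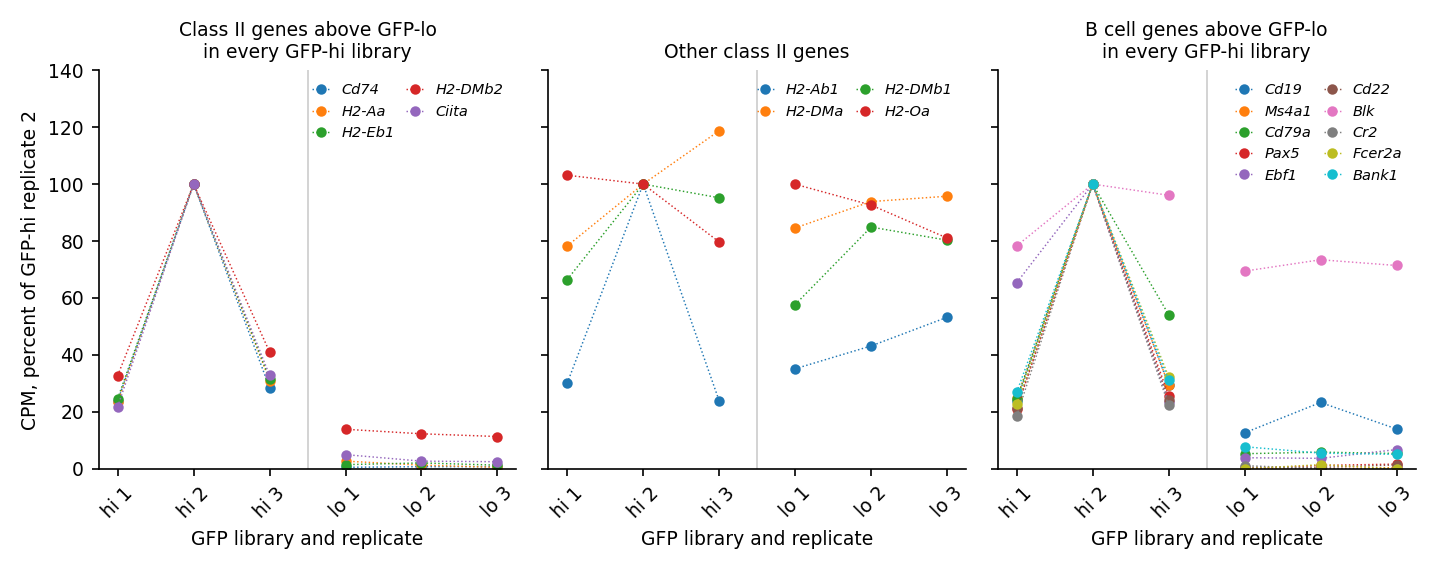
CPM of each gene in the 6 GFP libraries as a percentage of its CPM in GFP-hi replicate 2, for the 5 class II genes and the 10 B cell genes above GFP-lo in every GFP-hi library and for the other 4 class II genes, with dotted lines that only join the points of a gene. The 5 class II genes, most of the B cell genes, H2-Ab1 and H2-DMb1 peak in replicate 2, and H2-DMa and H2-Oa do not.

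Genes upstream and downstream of class II were examined next. Of the 7 genes of the RFX, CREB and NF-Y machinery, 0 were called. Rfx5, an RFX subunit, had a log2 fold change of 0.49 (adjusted p = 0.0308), and Nfya and Nfyb, NF-Y subunits, had -0.35 (adjusted p = 0.0225) and 0.10 (adjusted p = 0.44, edgeR). Of 11 genes of class II induction, 0 were called. Irf4 had 1.78 (adjusted p = 0.0435), Ifng, the cytokine that induces Ciita, 1.58 (adjusted p = 0.126), and Irf8 -1.06 (adjusted p = 0.0528, edgeR).

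Of 11 tested genes of antigen processing and class II turnover, 0 were called. The cathepsin genes Ctsh and Ctss had log2 fold changes of 5.96 (adjusted p = 0.0246) and 3.65 (adjusted p = 0.0426), and Cd83, which stabilises class II at the surface, had 4.69 (adjusted p = 0.0282, edgeR). Ctsh and Cd83 too were tested only because of their GFP-hi reads. These 3 genes had 4.64 to 5.001 times as many CPM in GFP-hi replicate 2 as in replicate 1, like the class II genes that did not overlap. The remaining class II chains in the table, H2-Eb2 and H2-Ob, the DO beta chain, had 0.34 and -0.32 (adjusted p = 0.735 and 0.607, edgeR). Within GFP-hi both were highest in replicate 2, at 4.95 and 2.59 times replicate 1. Of the co-stimulation genes, 0 of 2 tested were called, with Cd80 at 3.31 (adjusted p = 0.126) and Icosl at -0.89 (adjusted p = 0.304, edgeR). In GFP-hi, Cd80 was at 6.25 CPM in replicate 1, at 5.597 CPM in replicate 2 and at 0.112 CPM in replicate 3.

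The number of members called depended on single libraries and on the tool. Without GFP-hi replicate 3 all 5 non-overlapping members were called (8.81% of all genes), at log2 fold changes of 6.54 for Cd74, 5.41 for H2-Aa, 5.29 for H2-Eb1, 4.17 for Ciita and 2.42 for H2-DMb2 (adjusted p = 0.000888, 0.00224, 0.00156, 0.00516 and 0.00851, edgeR). H2-Ab1, H2-DMb1, H2-Oa and H2-DMa then had 0.58, 0.17, 0.16 and -0.030, with adjusted p from 0.238 to 0.893 (edgeR). By contrast, 0 were called without GFP-hi replicate 1 (0.503% of all genes) or without any 1 of the GFP-lo replicates (at most 0.102% of all genes). Cd74 kept a log2 fold change of 5.29 to 6.59 when any 1 library was left out, with adjusted p from 0.000888 to 0.0521 (edgeR). The study took both fractions from 3 cohorts of mice but does not tie the replicate numbers to them, and with the number as a block 0 members and 0 genes in all were called (Cd74 log2 fold change 6.00, adjusted p = 0.0314, edgeR). Limma-voom called 0 members, DESeq2 called 5, and 5 members had an unadjusted p under 0.05 in edgeR.

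The genotype libraries gave another pattern. In Lmo2Tg against wild-type, H2-DMa, H2-DMb1, H2-DMb2 and H2-Ab1 fell, H2-Oa was higher but under 2-fold, and Cd74, H2-Aa, H2-Eb1 and Ciita overlapped between the groups. At a fold above 2 and an adjusted p under 0.05 over 11840 genes (edgeR), 4 of 9 members were called lower, against 4.7% of all genes lower, 7.29% higher and 12% in either direction. In 4 of 9 members every Lmo2Tg library was below every wild-type library and in 1 of 9 above, against 31% and 29.9% of all genes.

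H2-DMa had 10.4 and 9.64 CPM in the Lmo2Tg libraries and 27.8, 25 and 28.1 CPM in wild-type. The groups were far apart (log2 fold change -1.43, SE 0.12, adjusted p = 1.2e-05, edgeR). Brd2, its neighbour on the opposite strand, had 805 to 857 CPM in Lmo2Tg and 422 to 460 CPM in wild-type.

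H2-DMb1 had 0.962 and 1.504 CPM in Lmo2Tg and 4.11, 4.64 and 5.44 CPM in wild-type (log2 fold change -1.93, SE 0.30, adjusted p = 0.000698, edgeR). H2-DMb2 had 0.888 and 1.57 CPM against 3.68, 2.74 and 3.15 CPM (log2 fold change -1.36, SE 0.30, adjusted p = 0.00477, edgeR). Both DM beta genes thus fell beside the DM alpha gene, without overlap.

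H2-Ab1 had 2.88 and 3.01 CPM in Lmo2Tg and 7.48, 7.89 and 9.25 CPM in wild-type (log2 fold change -1.48, SE 0.20, adjusted p = 0.000294, edgeR). Its partner H2-Aa had 0.740 and 1.98 CPM against 1.29, 1.27 and 0.363 CPM (log2 fold change 0.50, SE 0.54, adjusted p = 0.501, edgeR). H2-Eb1 had 0.370 and 1.78 CPM against 0.735, 1.15 and 0.726 CPM (log2 fold change 0.33, SE 0.53, adjusted p = 0.661, edgeR). The H2-Aa and H2-Eb1 libraries overlapped, and without Lmo2Tg library b their log2 fold changes turned to -0.39 and -1.21.

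Cd74 had 3.18 and 3.35 CPM in Lmo2Tg and 2.94, 3.56 and 0.544 CPM in wild-type (log2 fold change 0.48, SE 0.51, adjusted p = 0.491, edgeR). Wild-type replicate 3 was the low library for both Cd74 and H2-Aa. It also had the lowest sum, 2.48 CPM, of the 12 low B cell genes, which reached 4.39 and 6.25 CPM in the other wild-type libraries. Macrophage and monocyte genes under 10 CPM were lowest there too, at 7.077 CPM against 11.09 and 12.4 CPM. So were dendritic cell genes under 10 CPM, at 5.746 CPM against 6.986 and 7.696 CPM. Thymic epithelium genes under 10 CPM went the other way, with their highest wild-type sum, 19.54 CPM, in replicate 3. Without wild-type replicate 3 the log2 fold change of Cd74 was 0.01.

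H2-Oa went the other way from DM, with 7.62 and 6.29 CPM in Lmo2Tg and 5.09, 4.20 and 4.66 CPM in wild-type. It was higher in both Lmo2Tg libraries but under 2-fold (log2 fold change 0.58, SE 0.17, adjusted p = 0.0229, edgeR). H2-Ob, its partner in DO, had 17.2 and 18.5 CPM against 11.8, 8.97 and 7.68 CPM (log2 fold change 0.91, adjusted p = 0.00173, edgeR), also under 2-fold. Ciita had 0.666 and 0.410 CPM against 0.797, 0.763 and 0.484 CPM, only 6 to 13 reads a library (log2 fold change -0.34, SE 0.44, adjusted p = 0.569, edgeR).

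**Figure D3:**
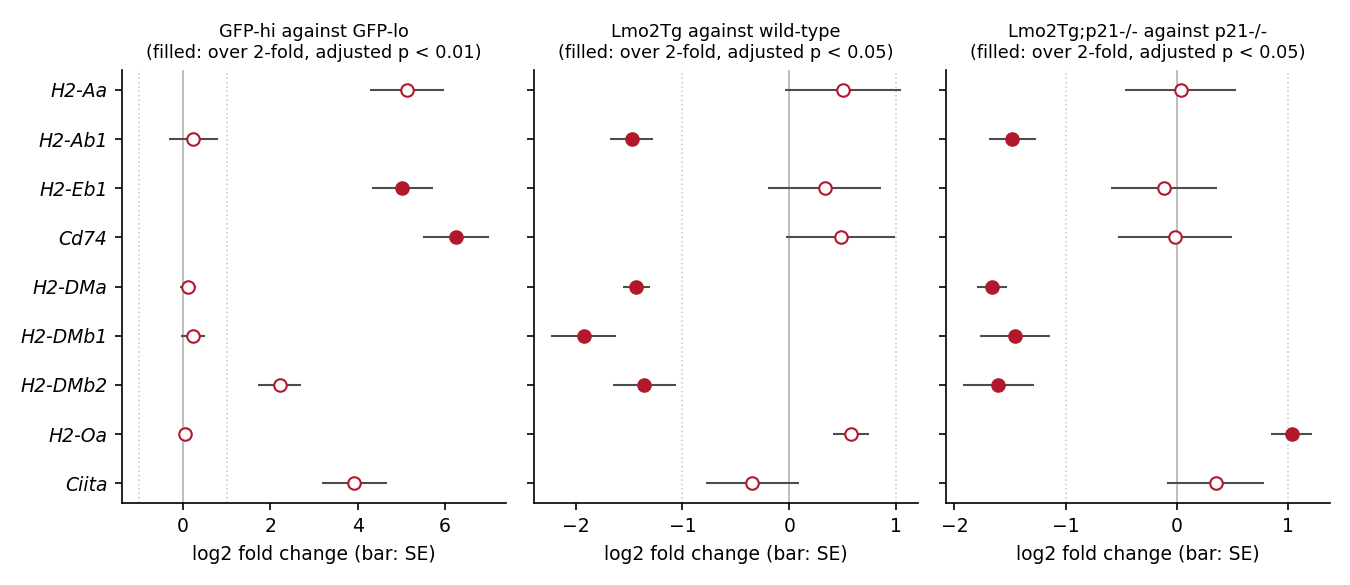
Log2 fold changes of the 9 genes (points) with SE (bars) in edgeR's fit for GFP-hi against GFP-lo, Lmo2Tg against wild-type and Lmo2Tg;p21-/- against p21-/-, where filled points passed the threshold and dotted lines mark 2-fold. Cd74 at 6.25 and H2-Eb1 at 5.02 are filled in the first panel, the DM genes and H2-Ab1 are filled, below 0, in the other panels, and H2-Oa is filled, above 0, in the last.

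Around these genes, the class II machinery again held 0 called of 7, with Nfya at -0.34 (adjusted p = 0.0107), Rfx5 at -0.30 (adjusted p = 0.0941) and Rfxank at 0.18 (adjusted p = 0.326, edgeR). Of 11 induction genes, 2 rose and 1 fell. Spi1, which encodes the myeloid and B cell factor PU.1, rose by 2.05 on the log2 scale (adjusted p = 6.63e-05), Irf8 fell by 1.35 (adjusted p = 0.000137), and Ifng had 1.62 (adjusted p = 0.082, edgeR). Of 10 turnover genes, 1 rose, March8, a ubiquitin ligase that removes class II from the surface, by 1.55 (adjusted p = 0.000194, edgeR). March1 and Ifi30, a lysosomal thiol reductase, had 0.61 and 0.57 (adjusted p = 0.256 and 0.016, edgeR). Of the co-stimulation genes, Icosl fell by 2.04 (adjusted p = 0.000239) and Cd80 rose by 2.09 (adjusted p = 0.0316, edgeR).

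The 12 low B cell genes summed to 4.36 and 7.18 CPM in Lmo2Tg and 2.48 to 6.25 CPM in wild-type. Of 11 B cell genes tested, 1 rose and 2 fell: Pou2af1, a co-activator of octamer factors, rose by 1.96 (adjusted p = 7.83e-05), and Spib and the kinase gene Blk fell by 1.71 and 1.45 (adjusted p = 3.36e-06 and 0.000206, edgeR). Macrophage and monocyte genes summed to 21.2 to 21.7 CPM in Lmo2Tg and 21.7 to 29.0 CPM in wild-type, with 2 of 7 higher and 2 lower, among them Ccr2 at -1.85 and Itgam at 1.70 (adjusted p = 0.00763 and 0.00111, edgeR). The 11 macrophage and monocyte genes under 10 CPM instead summed to 15.46 and 15.52 CPM in Lmo2Tg and to 7.08 to 12.4 CPM in wild-type, without overlap. Dendritic cell genes summed to 43.8 to 47.6 CPM and 46.8 to 51.1 CPM, with 1 of 4 higher, Itgax, and 1 lower, Ccr7, at 1.78 and -1.02 (adjusted p = 0.00875 and 0.0145), and Cst3 at -0.19 (adjusted p = 0.104, edgeR). The 10 dendritic cell genes under 10 CPM summed to 7.692 to 9.368 CPM in Lmo2Tg and to 5.746 to 7.696 CPM in wild-type, which barely overlap. Of 5 genes of thymic epithelium tested, 2 fell, Cldn4 at -3.81 and Epcam at -1.46, and Ccl25 had 0.55 (adjusted p = 4.71e-05, 5.22e-06 and 0.0536, edgeR). Of 12 DN3 genes 4 fell, led by Ptcra, the pre-T-cell receptor alpha chain, Cd3g and Notch3 (log2 fold changes -1.90, -1.56 and -1.13, adjusted p = 0.000616, 1.82e-06 and 2.21e-05, edgeR). The part of other cells in the DM and H2-Ab1 difference was not tested.

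On the p21-/- background the transgene gave a similar set of values. This comparison shares no library with the preceding one, but both come from the same fit of all genotype libraries. Their SE and p-values thus share an estimate of the spread. In Lmo2Tg;p21-/- against p21-/-, the same threshold called 5 of 9 members: H2-DMa, H2-DMb1, H2-DMb2 and H2-Ab1 fell and H2-Oa rose, while 4.24% of all genes were called lower, 6.15% higher and 10.4% in either direction. Every library was lower in 4 of 9 members and higher in 2 of 9, against 35.4% and 35.5% of all genes.

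H2-DMa had 6.92 and 8.21 CPM in Lmo2Tg;p21-/- and 24.3 and 23.8 CPM in p21-/- (log2 fold change -1.66, SE 0.13, adjusted p = 8.07e-06, edgeR). H2-Ab1 had 2.86 and 3.44 CPM against 7.74 and 9.94 CPM (log2 fold change -1.48, SE 0.21, adjusted p = 0.000419, edgeR). The groups did not overlap for either gene.

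H2-DMb2 had 1.07 and 1.03 CPM in Lmo2Tg;p21-/- and 3.05 and 3.35 CPM in p21-/- (log2 fold change -1.60, SE 0.32, adjusted p = 0.00347, edgeR). H2-DMb1 had 1.21 and 1.57 CPM against 4.57 and 3.10 CPM (log2 fold change -1.45, SE 0.32, adjusted p = 0.00564, edgeR), and it missed the threshold without Lmo2Tg;p21-/- replicate 1 (adjusted p = 0.0517) or p21-/- replicate 1 (adjusted p = 0.0506, edgeR). Without either of these libraries in turn, 3 members were called (8.06% and 9.34% of all genes).

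H2-Oa had 9.64 and 8.63 CPM in Lmo2Tg;p21-/- and 4.28 and 4.62 CPM in p21-/-. It rose just over 2-fold (log2 fold change 1.04, SE 0.19, adjusted p = 0.0019, edgeR), and fell short of 2-fold without Lmo2Tg;p21-/- replicate 1 (0.94) or p21-/- replicate 1 (0.98). H2-Ob, the DO beta chain, rose by 1.22 on the log2 scale (adjusted p = 0.000772, edgeR). Both DO chains were thus higher where the DM chains were lower.

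Cd74 had 3.35 and 5.07 CPM in Lmo2Tg;p21-/- and 3.75 and 4.81 CPM in p21-/-, H2-Aa 1.78 and 2.60 CPM against 2.58 and 1.71 CPM, and H2-Eb1 1.499 and 2.17 CPM against 2.23 and 1.77 CPM. These 3 genes overlapped, with log2 fold changes of -0.01, 0.04 and -0.11 (SE 0.51, 0.50 and 0.48). Ciita had 0.785 and 0.845 CPM against 0.762 and 0.506 CPM (log2 fold change 0.35, SE 0.44, adjusted p = 0.57, edgeR), without overlap at 8 to 14 reads a library.

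Loss of p21 alone moved none of the genes past the threshold. In p21-/- against wild-type, 0 of 9 members were called by edgeR, DESeq2 or limma-voom, against 0.101% of all genes in edgeR (0.0422% higher and 0.0591% lower), and 2 of 9 had an unadjusted p under 0.05. H2-Eb1 had 2.23 and 1.77 CPM in p21-/- against 0.735, 1.15 and 0.726 CPM (log2 fold change 1.203, SE 0.47), and H2-Aa had a log2 fold change of 1.14 (SE 0.50), both with an adjusted p of 0.984 (edgeR). Both were higher in 2 of 2 p21-/- libraries than in every wild-type library, as was Cd74 (log2 fold change 0.87, SE 0.49), so 3 of 9 members did not overlap and were higher, against 9.91% of all genes. H2-DMa was lower without overlap, as were 9.62% of all genes (log2 fold change -0.16, SE 0.11, adjusted p = 0.984, edgeR).

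In Lmo2Tg;p21-/- against Lmo2Tg, 0 of 9 members were called by the same 3 tools, against 1.88% of all genes in edgeR (0.431% higher and 1.44% lower), and 1 of 9 had an unadjusted p under 0.05. This was H2-DMa, with 6.92 and 8.21 CPM against 10.4 and 9.64 CPM (log2 fold change -0.40, SE 0.14, adjusted p = 0.116, edgeR). Every library was higher for 3 of 9 members (Cd74, H2-Oa and Ciita) and lower for 1 of 9, against 29% and 25.7% of all genes. H2-Oa had a log2 fold change of 0.39 (SE 0.18, adjusted p = 0.203, edgeR). The interaction, the difference in the transgene's effect with and without p21, was called for 0 of 9 members by these tools (0.802% of all genes in edgeR, 0.076% higher and 0.726% lower), with 0 members at an unadjusted p under 0.05 and a smallest adjusted p of 0.371. The members' interaction estimates ranged from -0.49 to 0.70 on the log2 scale.

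Set against each other per kilobase of exons, the genes kept different orders in the sorted and total cells. The experiments also differ in the strand setting given above, and H2-Oa and H2-DMa share exonic bases with genes on the opposite strand. The part of the strand setting in these orders was not tested. In GFP-lo, H2-Oa led at 16.8 ± 1.76 CPM per kb (SD, n = 3), followed by H2-Ab1 at 3.11 ± 0.642, H2-DMa at 1.85 ± 0.121, H2-DMb1 at 0.709 ± 0.139, H2-DMb2 at 0.305 ± 0.0314 and Cd74 at 0.225 ± 0.0423. H2-Eb1 at 0.125 ± 0.0325, H2-Aa at 0.0754 ± 0.0562 and Ciita at 0.0184 ± 0.00757 closed the order. Only H2-Eb1 with H2-Aa and H2-Aa with Ciita had overlapping ranges among these neighbours.

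In GFP-hi, H2-Oa at 17.4 ± 2.35 and Cd74 at 17.4 ± 14.6 CPM per kb led. H2-Eb1 at 4.11 ± 3.29, H2-Ab1 at 3.64 ± 3.00, H2-Aa at 2.62 ± 2.15, H2-DMa at 2.01 ± 0.411, H2-DMb2 at 1.41 ± 0.896 and H2-DMb1 at 0.832 ± 0.173 followed. Ciita came last at 0.282 ± 0.232. The only neighbours whose ranges did not overlap were Cd74 with H2-Eb1 and H2-DMb1 with Ciita.

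In wild-type total DN3 cells, H2-DMa led at 7.82 ± 0.496 CPM per kb (SD, n = 3). H2-Oa at 3.30 ± 0.316, H2-Ab1 at 3.20 ± 0.362 and H2-DMb1 at 2.81 ± 0.400 came next, with overlapping ranges. H2-DMb2 at 1.82 ± 0.270, Cd74 at 1.40 ± 0.949, H2-Eb1 at 0.447 ± 0.123, H2-Aa at 0.257 ± 0.139 and Ciita at 0.0714 ± 0.0180 followed. Among these later neighbours, only H2-DMb2 with Cd74 and Cd74 with H2-Eb1 had overlapping ranges.

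In Lmo2Tg (n = 2), H2-Oa led at 4.94 ± 0.667 CPM per kb, ahead of H2-DMa at 2.90 ± 0.146, Cd74 at 1.95 ± 0.0721 and H2-Ab1 at 1.15 ± 0.0347, with no overlap among the leading 4 genes. H2-DMa thus stood above H2-Oa in wild-type and below it in Lmo2Tg. The same held for p21-/- (n = 2), with H2-DMa at 6.98 ± 0.109 and H2-Oa at 3.16 ± 0.171, against Lmo2Tg;p21-/- (n = 2), with H2-DMa at 2.20 ± 0.265 and H2-Oa at 6.49 ± 0.503 CPM per kb. The tables were normalized separately, so levels are not compared between sorted and total cells.

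**Figure D4:**
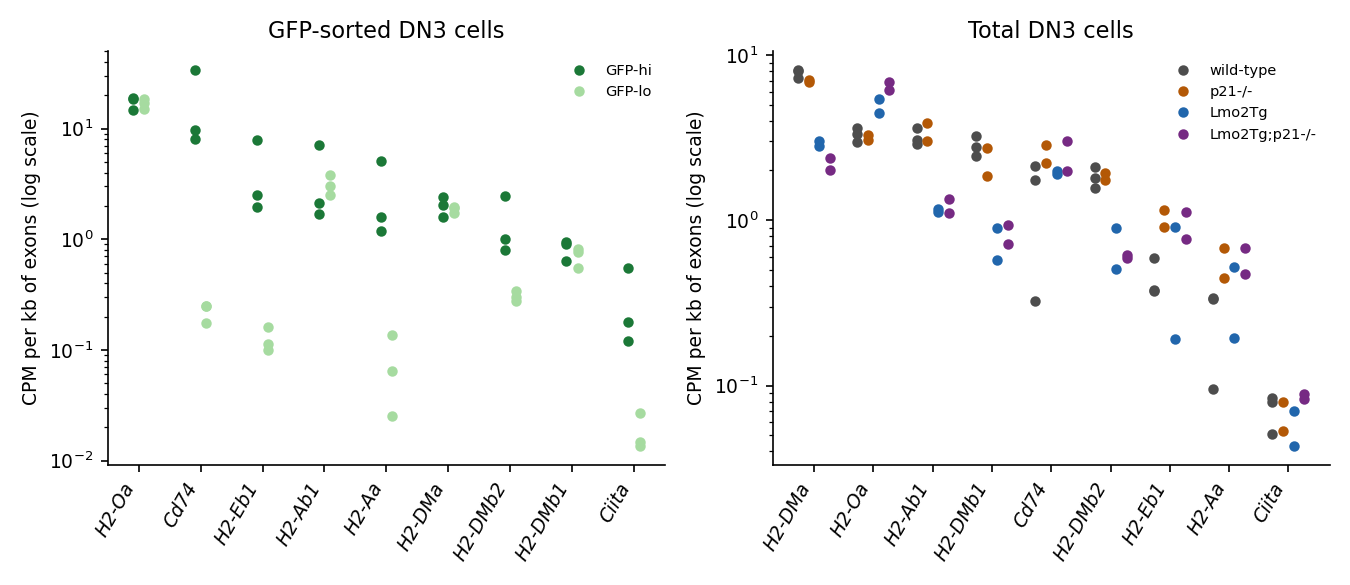
CPM per kilobase of exons on a log scale for every library (points), with genes ordered by their highest group mean in GFP-sorted cells (left) and total DN3 cells (right). H2-Oa is at 14.7 to 19.0 in all GFP libraries, and H2-DMa is at 7.25 to 8.16 in wild-type and 2.80 to 3.00 in Lmo2Tg.

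The genes most like Cd74 were sought among 10950 genes by the mean of Pearson's r of log2 CPM with Cd74 over the 6 GFP and over the 9 genotype libraries. Outside the members, Cybb, a subunit of the phagocyte NADPH oxidase, came first (r = 0.983 and 0.907), followed by Ttc3 (0.962 and 0.857), Senp5 (0.827 and 0.972), Cbl (0.938 and 0.850) and Prdm9 (0.952 and 0.833). Spearman's rho over the same libraries was 0.829 and 0.933 for Cybb, 0.600 and 0.583 for Ttc3, 0.714 and 0.867 for Senp5, 0.600 and -0.0667 for Cbl, and 0.886 and 0.5 for Prdm9, so the relation of Cbl over the genotype libraries was gone on ranks. Of the members, H2-Aa ranked 3 and H2-Eb1 185 of all genes compared, and H2-DMb2 had 0.964 over the GFP libraries and -0.29 over the genotype libraries. The points share libraries and fall into the GFP-hi and GFP-lo groups, so these values are a description. Cybb had 0.772, 4.03 and 0.819 CPM in GFP-hi and at most 1 read in a GFP-lo library.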

How the data were processed

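RNA of DN3 thymocytes was sequenced in 2 experiments, and 15 libraries with 22114 genes were analysed. The authors aligned reads with STAR 2.4.2a to mm10 and counted reads per gene with featureCounts, and the deposited counts are not normalised. The names of the deposited tables give a reverse-strand setting for the GFP libraries and an unstranded one for the genotype libraries, and no protocol states it. One of the count columns matches no labelled sample and was not used (1 column), and 1 of the 16 labelled samples had no column here. Groups follow the sample labels.

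Counts were fitted per experiment with edgeR 4.0.16 (R 4.3.3): TMM normalisation, filterByExpr with a minimum count of 10 and total of 15, and the quasi-likelihood test, with Benjamini-Hochberg adjusted p-values and a fold above 2. The adjusted p threshold was 0.01 for GFP and 0.05 for genotypes. SE was derived from the F statistic. CPM used the library totals of the tested genes with TMM factors. Length was the union of GENCODE M21 exons, to which 98.2% of genes matched. Alternatives were DESeq2 1.42.0, limma-voom (limma 3.58.1), other size factors, filters, a replicate block and leaving out each library. The steps were tested on simulated data.

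All 9 members are named, and of each gene list the 3 tested genes with the largest absolute log2 fold change, apart from a gene that is not reported here. The members and lists were chosen with earlier results of these data known. The sources do not say what a replicate number marks, and the numbers were not taken as pairs. Deviations of same-numbered libraries correlated between -0.0793 and 0.0989 in the GFP experiment and between -0.237 and 0.303 among genotypes. For differently numbered libraries these ranges were -0.111 to 0.108 and -0.378 to 0.378. In groups of 2 libraries the deviations from the mean mirror each other. These values do not decide whether the numbers mark pairs.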

Additional observations from a re-analysis of the deposited data

How the results depend on the processing

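Of 100 alternative values of member counts, 86 stayed within 1.5 times the reported count and 14 moved. In GFP-hi against GFP-lo, 2 members were called, and DESeq2 called 5, limma-voom 0, an adjusted p under 0.05 5, and at least 1 CPM in every library 0, of 3 members left to test. With 1 library left out the count ranged from 0 to 5. The 1 CPM filter gave 2 members in Lmo2Tg against wild-type and 3 in Lmo2Tg;p21-/- against p21-/-, again of 3 tested, and leaving out 1 library gave 3 to 5 in the latter. Apart from the filter, which tested fewer members, the cause was not tested.

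Of 681 alternative values of single members, 626 kept their direction and their side of the adjusted p threshold, 18 no longer passed it, 9 newly passed it and 28 changed sign, the last all of members not called. Fold is not part of these counts: H2-Oa in Lmo2Tg against wild-type, under 2-fold throughout, is 4 of the 18. With limma-voom, H2-Ab1 was -0.035 in GFP-hi against GFP-lo and H2-Eb1 -0.0035 in Lmo2Tg against wild-type, and with no filter H2-DMb2 was -0.0014 in p21-/- against wild-type. With 1 library left out, log2 fold changes crossed 0 as follows. In GFP-hi against GFP-lo H2-Ab1 ranged from -0.70 to 0.58, H2-DMa from -0.030 to 0.27 and H2-Oa from -0.030 to 0.16. In Lmo2Tg against wild-type H2-Aa ranged from -0.39 to 1.03 and H2-Eb1 from -1.21 to 1.03. In p21-/- against wild-type H2-Ab1 ranged from -0.086 to 0.27, H2-DMb2 from -0.10 to 0.12, H2-Oa from -0.13 to 0.0059 and Ciita from -0.43 to 0.16. In Lmo2Tg;p21-/- against Lmo2Tg H2-Ab1 ranged from -0.057 to 0.21, H2-DMb1 from -0.11 to 0.54 and H2-DMb2 from -0.59 to 0.24. In Lmo2Tg;p21-/- against p21-/- Cd74 ranged from -0.36 to 0.235, H2-Aa from -0.28 to 0.37 and H2-Eb1 from -0.43 to 0.11.

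With the replicate number as a block, 0 members and 0 genes in all were called in GFP-hi against GFP-lo, where Cd74 was 6.00 (adjusted p = 0.0314, edgeR) and H2-Ab1 -0.051, and H2-DMb2 was -0.0025 in p21-/- against wild-type. The block left 5 members called in Lmo2Tg;p21-/- against p21-/-. Lmo2Tg libraries carry letters, so no block could be fitted for comparisons with them. The numbers were not taken as pairs. Genes such as Ciita, with 6 to 14 reads in a genotype library, limit what small differences can be seen at this depth.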
